A study of Mus musculus with 12 samples.

Results

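Proteasome genes were taken as the genes whose symbol began with Psm, then a letter from a to g, then a digit, and 50 of the 23923 genes listed in the tibialis anterior of control and Smyd1 CKO mice met this rule. By known role they comprised 14 subunits of the constitutive core (7 alpha, 7 beta), 17 subunits of the regulatory cap (6 ATPases, 11 non-ATPases), 3 immunoproteasome subunits, 12 regulators (3 cap chaperones, 4 core chaperones, 4 activator subunits and 1 inhibitor), 2 core subunits restricted to testis or thymus, and 2 further name matches. RNA was sequenced from the tibialis anterior, a fast-twitch hindlimb muscle, of 12 mice aged 6 weeks on a C57BL6/J;129S1/SvImJ background. The study states that its experiments after the first muscle histology, which it reports before the sequencing, used male tissue only. The 6 controls were Myf6 cre/+; Smyd1 flox/+ and the 6 CKOs were Myf6 cre/+; Smyd1 flox/-, and per the study's methods both groups also carried 1 Rosa26 YFP allele. Cre was produced from the Myf6 gene in skeletal muscle cells and became active around birth. Cre and 1 floxed Smyd1 allele were therefore present in both groups, and the non-muscle cells of a CKO muscle kept 1 floxed allele that was not exposed to Cre.

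The proteasome is the main machine by which cells degrade ubiquitin-tagged proteins. Alpha and beta rings form a barrel with the catalytic sites inside, and the cap recognizes the ubiquitin tag, removes it and unfolds the substrate. In skeletal muscle the proteasome breaks down myofibrillar proteins during atrophy, and in inflamed tissue interferon replaces the constitutive catalytic subunits with those of the immunoproteasome, which favors production of peptides for class I antigen presentation.

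Levels were read as FPKM, in which the fragments of a gene are divided by the length of its transcript and by the mapped total of the sample, so that genes can be compared with each other. The number of reads was unknown, and relative depth read from the smallest FPKM steps was 1 to 1.55 in controls and 0.993 to 1.78 in CKOs, relative to control 1. Most genes were higher in CKOs on the deposited scale, where the log2 fold change (CKO minus control throughout) had a median of 0.176 and was positive for 77.9% of the 12695 genes tested. The counts, medians and main genes are therefore also given after median-ratio scaling, which divides a sample by the median of its ratios to the mean sample. The scaling factors were 0.854 to 1.116 in controls and 1.028 to 1.149 in CKOs. Smyd1 was 32.9 to 47.1 FPKM in controls and 27.8 to 39.9 FPKM in CKOs, a log2 fold change of -0.13 (SE 0.116, limma adjusted P = 0.545). After scaling it was -0.32 (SE 0.083, adjusted P = 0.0801) and passed the unadjusted threshold of 0.05. This value covers the whole gene and which exons were floxed is not given in the sources used here, so it did not check the labels and the groups are named as labelled. On the study's western blots SMYD1 protein was undetectable in CKO tibialis anterior, and whether these were the sequenced mice is not stated. Fast muscle markers were abundant in both groups. Acta1, skeletal muscle actin, was 4020 to 4980 FPKM in controls and 3230 to 4240 FPKM in CKOs (-0.33, adjusted P = 0.218), and Myh4, the fastest myosin heavy chain, was 2480 to 3840 FPKM in controls and 3590 to 7500 FPKM in CKOs (0.77, adjusted P = 0.0599). Both passed the unadjusted threshold, whereas the giant sarcomere gene Ttn was listed at 0 in 3 of the 6 controls and 5 of the 6 CKOs. It was 639 to 871 FPKM in the remaining controls and 696 FPKM in CKO 2, and a listed 0 can be a failed estimate.

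Promoters of 42 of the 50 genes were matched by symbol to RefSeq (GRCm38.p6, 250 bases before to 50 bases after the start) and searched on both strands for 4 motifs known from proteasome and antigen presentation genes. The sequences below are those of the catalytic subunits Psmb5 and Psmb6 and the cap subunits Psmc6 and Psmd12 with the core of the antioxidant response element, TGACNNNGC, which is the motif bound by Nfe2l1 and Nfe2l2. They are followed by that of the immunoproteasome subunit Psmb8 with the gamma-activated sequence, TTCNNNGAA, and that of the activator subunit Psme1 with the interferon-stimulated response element, searched as 2 copies of GAAA separated by 2 bases of any kind. Capitals mark the motif on the gene's strand or its reverse complement.
Psmb5 (chr14:54618024-54618052, minus strand): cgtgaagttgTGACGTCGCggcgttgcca
Psmb6 (chr11:70525338-70525366, plus strand): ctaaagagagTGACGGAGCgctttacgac
Psmc6 (chr14:45329587-45329615, plus strand): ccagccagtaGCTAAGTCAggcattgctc
Psmd12 (chr11:107479278-107479299, plus strand): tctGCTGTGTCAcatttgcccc
Psmb8 (chr17:34198088-34198116, plus strand): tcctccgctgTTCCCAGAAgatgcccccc
Psme1 (chr14:55578493-55578522, plus strand): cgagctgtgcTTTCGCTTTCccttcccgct
TGACNNNGC was present in 6 of the 42 promoters (14.3%), the others being Psmd9 and Psme4, and in 14.0% of the 27025 promoters searched. The interferon-stimulated element was present in 5 of 42 (11.9%, in Psmb3, Psmd4, Psmd9, Psme1 and Psmg4) against 3.99% of all promoters. The gamma-activated sequence was present in 3 of 42 (7.14%, in Psmb8, Psmd2 and Psmg1) against 9.55%, and CCAAT, the motif of the Nfya, Nfyb and Nfyc complex, in 15 of 42 (35.7%) against 41.1%. A match describes these letters only and no binding was measured.

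In control muscle the core and cap subunits had similar median levels, 18.5 and 20.1 FPKM. Psmb7, which carries a constitutive catalytic site, had the highest mean at 64.3 ± 13.1 FPKM (SD, n = 6), followed by the alpha subunit Psma6 at 43.3 ± 12.3 FPKM (SD, n = 6). Psma5, another alpha subunit, had the lowest mean of the core at 0.817 ± 0.692 FPKM (SD, n = 6), 78.7-fold below Psmb7. Subunits of the cap ran from 5.53 FPKM for Psmd11 to 37.6 FPKM for Psmd6, a 6.8-fold range. Among subunits with less than 10% of the transcript shared with another gene the core ran from 12.6 to 64.3 FPKM and the cap from 6.94 to 37.6 FPKM, so most of the wider range of the core lay in subunits with shared sequence. When core subunits were ordered by control mean, 8 of 13 neighboring pairs differed by more than 1 SD of their log2 difference across the 6 controls, for example Psmb7 above Psma6 and Psma6 above Psmb1. Only 5 of 16 neighboring pairs of the cap did so, and the 6 highest cap subunits (Psmd6, Psmd4, Psmc3, Psmc6, Psmd12 and Psmc5) were not separated from their neighbors by this measure.

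The 4 core subunits with the lowest means (Psma5, Psmb3, Psma3 and Psmb5) all had transcripts that resemble other genes. Because reads with more than 1 mapping position were dropped by the authors, the share of each gene's longest GENCODE M21 transcript that matched another gene over at least 50 bases at 96% identity or more was measured. It was 88.4% for Psmb5, 76.5% for Psma5, 66.9% for Psma4, 31.6% for Psma3, 27.4% for Psmb6 and 19.7% for Psmb3. The median of these 6 control means was 3.25 FPKM, against 23.6 FPKM for the 8 core subunits with less than 10% shared. Psmb6 at 25.4 FPKM and Psma4 at 12.9 FPKM lay within the range of the unshared subunits, as did the cap subunit Psmd2 at 21.4 FPKM although 91.9% of its transcript was shared with a pseudogene. Levels of the 9 core and cap subunits with 10% or more shared sequence are therefore uncertain, and how far the discarded reads account for the low values was not tested.

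Among the regulators Psme4, a large ATP-independent activator, stood at the level of the core and cap, with 33.2 to 46.7 FPKM in controls and 28.9 to 44.9 FPKM in CKOs. Psme1 and Psme3, subunits of the ring-shaped activators, had control means of 7.25 and 4.81 FPKM. Assembly chaperones had control means of 0.561 (Psmg3) to 4.84 FPKM (Psmg2), and the inhibitor Psmf1 had one of 0.962 FPKM. Immunoproteasome subunits were near or below 1 FPKM, with control medians of 0.724 for Psmb8, 0.263 for Psmb9 and 1.08 FPKM for Psmb10. The thymus-restricted Psmb11 was listed at 0 in all 12 libraries, and the testis-restricted Psma8 was listed at 0 in all but CKO 5, where it was 0.167 FPKM. These 2 genes did not pass the filter of 0.1 FPKM in at least 6 samples, so 48 of the 50 genes were tested.

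**Figure D1:**
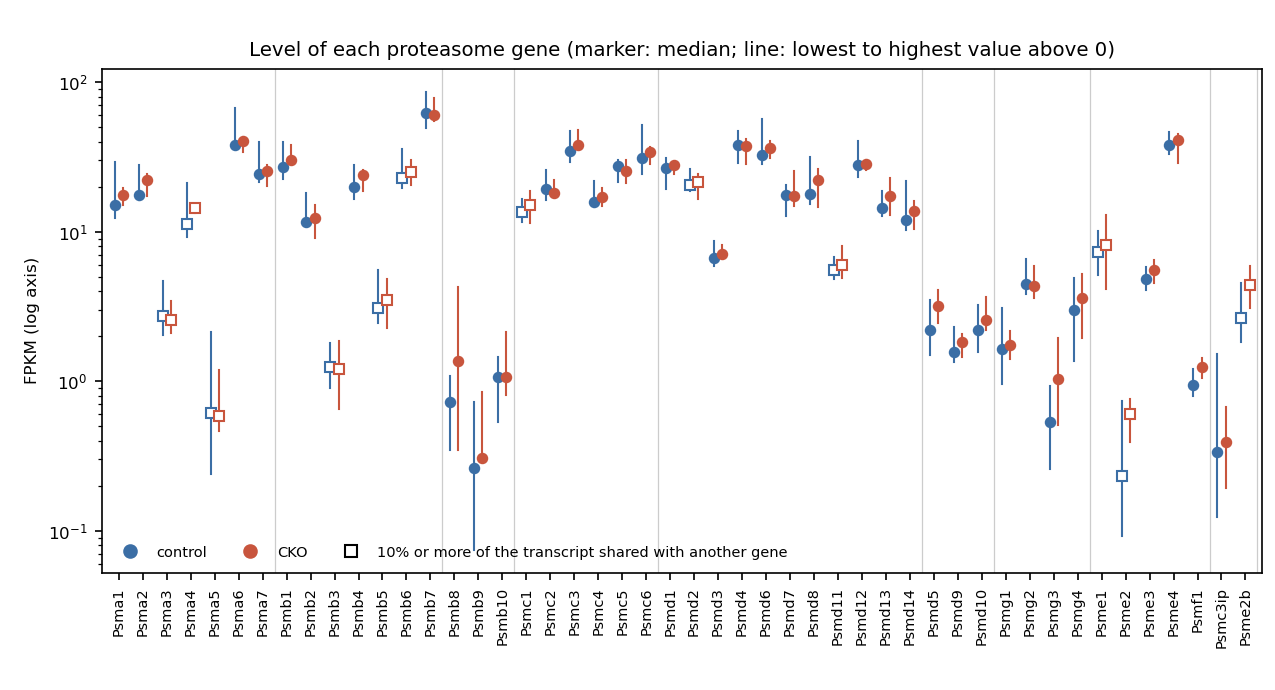
FPKM on a log axis for the 48 tested genes in 6 control (blue) and 6 CKO (red) mice, in the order core alpha, core beta, immunoproteasome, cap ATPase, cap non-ATPase, cap chaperones, core chaperones, activators with inhibitor, and other name matches. Markers are medians, lines run from the lowest to the highest value above 0, and open squares are genes with 10% or more of the transcript shared with another gene, such as Psma5 and Psmb5. Controls and CKOs lie side by side for core and cap subunits, and Psmb8, Psme2 and Psmg3 have the most visibly separated medians.

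The study asked how loss of SMYD1 in muscle changes the transcriptome, and no core or cap subunit passed the test in either direction on the deposited scale. At an adjusted P below 0.05 (limma, Benjamini-Hochberg over all 12695 genes) 0 of the 48 genes were higher and 0 were lower, where 2.02% and 0.268% of all genes were. At an unadjusted P below 0.05, 5 of the 48 were higher (Psmg3, Psme2, Psme2b, Psmf1 and Psmd5) and 0 were lower, where 18.1% of all genes were higher and 1.76% lower. The smallest adjusted P was 0.125, for Psme2b. None of the 48 had all 6 CKOs above or all 6 below the 6 controls, which 2.23% and 0.189% of all genes had. A muscle is a mixture, and a smaller share of fibers and less RNA per fiber cannot be told apart in these values.

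For the 14 core subunits the log2 fold change had a median of 0.01 and ran from -0.15 (Psma3) to 0.21 (Psma4), and for the 17 cap subunits it had a median of 0.06 and ran from -0.05 (Psmc2 and Psmc5) to 0.22 (Psmd13). All genes tested had a median of 0.176 on the same scale. The 95% intervals of the cap subunits stayed between -0.333 and 0.514, which is the size of change these samples leave possible on the deposited scale. After median-ratio scaling the cap intervals ran from -0.436 to 0.263. For the core the intervals on the deposited scale reached from -0.782 to 0.806, both ends set by the thinly measured Psma5. Alpha and beta subunits had the same median of 0.01, while ATPase and non-ATPase subunits of the cap had medians of 0.05 and 0.09.

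**Figure D2:**
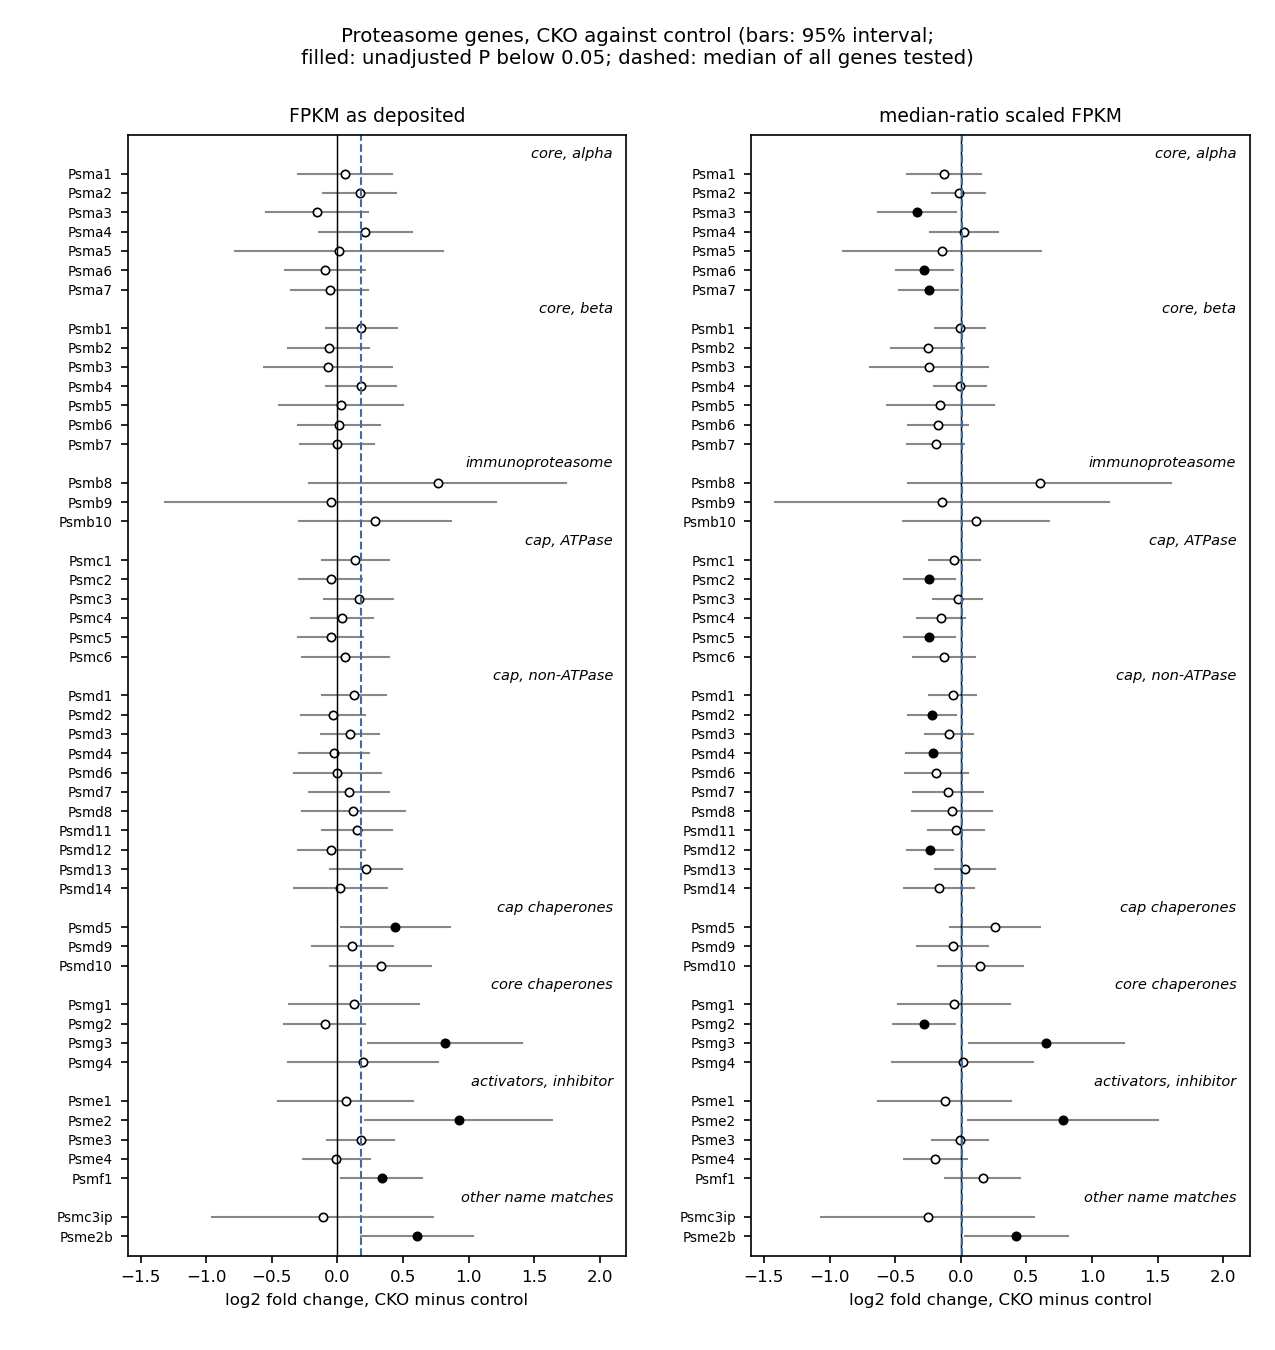
Log2 fold change (CKO minus control) of the 48 tested genes by class, on the deposited scale (left) and after median-ratio scaling (right), with 95% intervals from limma. Filled circles have an unadjusted P below 0.05 and the dashed line is the median of all genes tested (0.176 and 0.008). On the left the filled circles are 5 genes outside core and cap, and on the right core and cap subunits shift to the left of 0, with 8 of 31 filled.

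After median-ratio scaling the same subunits lay below the other genes. Of the 31 core and cap subunits 29 had a negative log2 fold change, when 51.3% of all genes were positive. The core median became -0.17 and the cap median -0.13, against 0.008 for all genes. At an unadjusted P below 0.05, 8 of the 31 were lower, where 7.41% of all genes were, and 0 were higher, where 6.66% were. The 8 were the alpha subunits Psma3, Psma6 and Psma7, the cap ATPases Psmc2 and Psmc5, the ubiquitin receptor Psmd4, the large scaffold subunit Psmd2 and the cap subunit Psmd12. Psmd12 had the smallest P of these (log2 fold change -0.23, SE 0.082, limma adjusted P = 0.201), and Psma3 the largest change (-0.34, SE 0.141, adjusted P = 0.295). None passed the adjusted threshold, as 0.709% of all genes did in this direction and 0.764% in the other. Over all 48 genes 9 were lower at an unadjusted P, the further one being the core chaperone Psmg2, and 3 were higher (Psme2, Psme2b and Psmg3). Markers of tibialis muscle had a scaled median of -0.46 over the 6 tested, 5 of them negative. Acta1 (-0.52), Tnnt3 (-0.53) and Pvalb (-0.58) were lower at an unadjusted P, whereas Myh4 (0.58) was higher. Immune cell markers had a scaled median of 0.27, and the part of muscle and immune cell content in the proteasome values was not tested.

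A single control mouse had the highest value of most subunits. Control 1 was the highest of the 12 mice for 25 of the 31 core and cap subunits and lowest for 0. The median deviation of the core subunits from their 12-mouse means (log2) was 0.607 in control 1, against -0.231 to 0.127 in the other controls and -0.216 to 0.16 in CKOs, and their summed level was 407 FPKM there and at most 308 FPKM in any CKO. Deviations of the cap were 0.331 in control 1 and -0.262 to 0.186 in the other 11 mice. Control 1 also had the highest deviation for the 9 tested immune cell markers (1.234) and for the 5 fibroblast and endothelial markers (0.86). Within the latter list the endothelial marker Cdh5 was lowest in control 1, at 7.22 FPKM. Control 1 was also the highest mouse for the muscle markers Ckm (5960 FPKM), Mylpf (8320 FPKM), Tnnt3 (7010 FPKM) and Pvalb (4060 FPKM), but not for Myh4 (3120 FPKM). The part of any of these cell contents in the proteasome values was not tested. Control 2 had the lowest value of 13 of the 31 subunits, with deviations of -0.225 for the core and -0.262 for the cap. Over all genes tested the deviation was 0.143 in control 1 and -0.212, the lowest of the 12 mice, in control 2.

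Without control 1 the core and cap medians were 0.14 and 0.16 on the deposited scale, where all genes had a median of 0.22. Of the 48 genes 12 were then higher at an unadjusted P, where 27.0% of all genes were, including the core subunits Psma2, Psma4, Psmb1 and Psmb4 and the cap subunits Psmc3 and Psmd13. Only Psme2b also passed the adjusted threshold (adjusted P = 0.0209), as 8.4% of all genes did. With scaling and without control 1, 5 of the 31 core and cap subunits were lower, where 9.01% of all genes were. Psma6 had a log2 fold change of -0.19 in that comparison (adjusted P = 0.18) and Psmd12 one of -0.18 (adjusted P = 0.211).

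**Figure D3:**
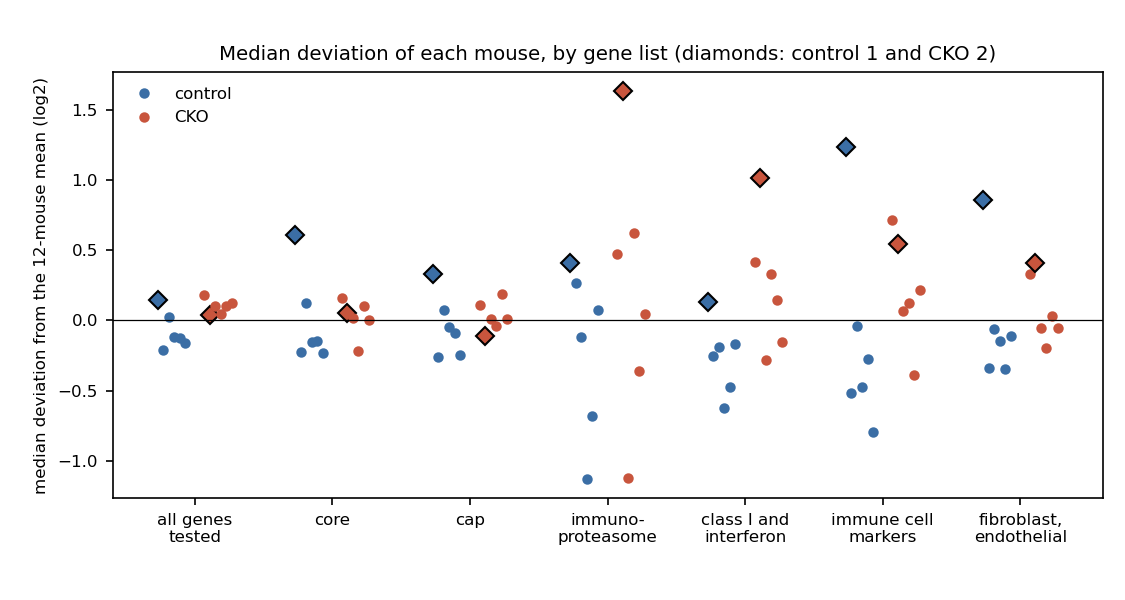
Median deviation of each mouse from the 12-mouse mean (log2) over all genes tested and over 6 gene lists, with controls in blue and CKOs in red. Diamonds mark control 1, which is highest for core (0.607), cap, immune cell markers (1.234) and fibroblast and endothelial markers, and CKO 2, which is highest for the immunoproteasome (1.632) and for class I and interferon genes (1.013).

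The core subunits with the smallest P on the deposited scale were Psmb1, Psmb4 and Psma2. Psmb1, a structural beta subunit, was 22.5, 27.1 and 39.6 FPKM at its lowest, median and highest in controls and 28.8, 30.1 and 38.2 FPKM in CKOs (log2 fold change 0.18, SE 0.127, limma adjusted P = 0.426). The 6 CKOs lay inside the range of the controls, whose highest value was control 1 at 39.6 FPKM. Psmb4, a structural beta subunit of the same ring, was 16.6, 19.9 and 28.0 FPKM in controls and 18.8, 23.9 and 26.0 FPKM in CKOs (0.18, SE 0.126, adjusted P = 0.434). Psma2, an alpha subunit, was 16.3, 17.5 and 27.9 FPKM in controls and 17.4, 22.1 and 24.2 FPKM in CKOs (0.17, SE 0.13, adjusted P = 0.469). All 3 overlapped between groups in this way, and after scaling their log2 fold changes were -0.005, -0.008 and -0.016, near the middle of all genes.

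The cap subunits with the smallest P were Psmd13, Psmc3 and Psmd11. Psmd13, a cap lid subunit, was 12.7, 14.5 and 18.8 FPKM in controls and 12.9, 17.3 and 22.8 FPKM in CKOs (log2 fold change 0.22, SE 0.129, limma adjusted P = 0.356). Psmc3, an ATPase of the ring that unfolds substrates, was 29.1, 35.0 and 47.3 FPKM in controls and 35.5, 38.2 and 48.1 FPKM in CKOs (0.16, SE 0.124, adjusted P = 0.47). Psmd11, a lid subunit that promotes proteasome assembly, was 4.8, 5.56 and 6.74 FPKM in controls and 4.91, 5.95 and 8.05 FPKM in CKOs (0.15, SE 0.125, adjusted P = 0.517). For each of them 1 CKO lay above the highest control, and the other CKOs were among the controls.

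The constitutive catalytic subunits had log2 fold changes near 0 between groups on the deposited scale. Psmb7, with trypsin-like activity, was 49.2, 62.3 and 86.2 FPKM in controls and 55.3, 60.7 and 78.9 FPKM in CKOs (log2 fold change -0.01, 95% interval -0.286 to 0.277). Psmb6, with caspase-like activity, was 19.7, 23.1 and 35.7 FPKM in controls and 20.5, 25.2 and 30.0 FPKM in CKOs (0.01, interval -0.301 to 0.325). Psmb5, with chymotrypsin-like activity, was 2.45, 3.09 and 5.52 FPKM in controls and 2.26, 3.52 and 4.86 FPKM in CKOs (0.03, interval -0.448 to 0.501). Their groups overlapped, with 1 or 2 controls above the highest CKO, and the intervals leave changes of these sizes possible. After scaling the log2 fold changes were -0.19 for Psmb7 (interval -0.41 to 0.027), -0.175 for Psmb6 (-0.404 to 0.055) and -0.155 for Psmb5 (-0.563 to 0.253).

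Psmb8, Psmb9 and Psmb10 are the inducible counterparts of Psmb5, Psmb6 and Psmb7, and all were low. Psmb8 was 0.349, 0.724 and 1.08 FPKM at its lowest, median and highest in controls and 0.349, 1.36 and 4.27 FPKM in CKOs (log2 fold change 0.76, SE 0.46, limma adjusted P = 0.362). In CKOs 1, 2, 4 and 5 it lay above the highest control, and CKOs 3 and 6 lay among the controls. Without CKO 2, which had the highest value, the log2 fold change was 0.41 (adjusted P = 0.568). Without CKO 3 it was 1.07 and without CKO 6 it was 1.01, both past the unadjusted threshold, and after scaling with all 12 mice it was 0.60 (adjusted P = 0.632). Psmb10 was 0.537, 1.08 and 1.46 FPKM in controls and 0.814, 1.07 and 2.15 FPKM in CKOs (0.28, SE 0.273, adjusted P = 0.573), and CKO 2 was again the highest. Psmb9 was listed at 0 in control 4, CKO 3 and CKO 5, at 0.0745 to 0.722 FPKM in the other 5 controls and at 0.292 to 0.849 FPKM in the other 4 CKOs, so its groups overlapped throughout. A value of 0 in files without counts can be a failed estimate.

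The ratio of an inducible to its constitutive subunit depends little on the scaling of a sample except for values near 0, since it was computed on log2 of (FPKM + 0.1). Psmb8 amounted to 14.4% to 38.8% of Psmb5 in controls and to 9.44% to 185% in CKOs, with 3 CKOs above the highest control and the value of 185% in CKO 2. The difference in the log2 ratio was 0.74 (SE 0.694, two-sided exact permutation test over 924 assignments, P = 0.325, 0.545 adjusted over the 3 ratios). For Psmb10 over Psmb7 the ratio was 1.01% to 2.69% in controls and 1.16% to 3.4% in CKOs, a difference of 0.29 (SE 0.305, exact P = 0.364, adjusted 0.545). For Psmb9 over Psmb6 it was 0.427% to 4.03% and 0.333% to 3.69%, a difference of -0.06 (SE 0.739, exact P = 0.935). With 1 mouse left out the difference ran from 0.266 (without CKO 2) to 1.125 (without CKO 3) for Psmb8 over Psmb5 and from 0.141 (without control 4) to 0.455 (without CKO 5) for Psmb10 over Psmb7. The smallest P this test can give is 0.00216, and each of the 3 differences was smaller than the larger of the SDs of its groups. Because 88.4% of the Psmb5 transcript was shared with other genes, the percentages for Psmb8 over Psmb5 are uncertain in size.

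Genes of class I antigen presentation and interferon response were measured beside the immunoproteasome, whose work they share. Of the 9 tested 6 were higher at an unadjusted P on the deposited scale, where 18.1% of all genes were, and 3 after scaling, where 6.66% were. The median log2 fold change was 0.64 on the deposited scale and 0.47 after scaling, and 0 passed the adjusted threshold. Tapbp, which loads peptide onto class I molecules, was 1.59, 1.89 and 2.35 FPKM in controls and 2.12, 2.67 and 3.05 FPKM in CKOs (0.45, SE 0.13, limma adjusted P = 0.0817), with 5 CKOs above the highest control. Tap2, a subunit of the peptide transporter, had a log2 fold change of 0.71 (SE 0.228, adjusted P = 0.112). Irf1, an interferon-induced transcription factor, had one of 0.64 (SE 0.223, adjusted P = 0.137). B2m and H2-K1, the light chain and a heavy chain of class I molecules, were also among the 6 and were named after their values were seen. After scaling Tapbp (0.27), Tap2 (0.54) and Irf1 (0.47) still passed the unadjusted threshold, whereas B2m (0.505) and H2-K1 (0.715) did not. H2-D1, another heavy chain and named likewise, had a log2 fold change of 0.13 on the deposited scale (limma adjusted P = 0.795). CKO 2 had the highest deviation of this list too, at 1.013, and without it 4 of the 9 were higher at an unadjusted P, where 18.7% of all genes were, with a median of 0.41.

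Immune cells of the muscle also express these genes, and their markers were measured beside them. Of the 12 markers 9 were tested and 0 were called in either direction, with a median log2 fold change of 0.43 and summed levels of 9.45 to 41.8 FPKM in controls and 13.5 to 25.6 FPKM in CKOs. The sum of 41.8 FPKM was that of control 1, and without it 7 of the 9 markers were higher in CKOs at an unadjusted P, where 27.0% of all genes were. The lymphocyte markers Cd3e and Cd79a were listed at 0 in most libraries and reached at most 0.119 FPKM. With all 12 mice 1 of 5 fibroblast and endothelial markers was higher at an unadjusted P, where 18.1% of all genes were. This was Pdgfra, a fibroblast and progenitor receptor (log2 fold change 0.67, SE 0.241, limma adjusted P = 0.145). Col1a1 was the 1 negative gene of that list (-0.21, limma adjusted P = 0.656). The part of these cells in the values of the immunoproteasome and class I genes was not tested.

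Of the 12 regulators 4 were higher in CKOs at an unadjusted P, where 18.1% of all genes were, and 0 were lower, where 1.76% were. Their median log2 fold change of 0.19 was close to that of all genes. Psmg3, a chaperone that assembles the alpha ring, was 0.26, 0.538 and 0.931 FPKM in controls and 0.509, 1.04 and 1.96 FPKM in CKOs (log2 fold change 0.82, SE 0.276, limma adjusted P = 0.127). In 4 of the 6 CKOs it lay above the highest control. Psmf1, which binds the core and is known as its inhibitor, was 0.791, 0.939 and 1.21 FPKM in controls and 1.05, 1.24 and 1.43 FPKM in CKOs (0.34, SE 0.144, adjusted P = 0.21), with 3 CKOs above the highest control. Psmd5, a cap assembly chaperone, was 1.5, 2.2 and 3.49 FPKM in controls and 2.46, 3.19 and 4.07 FPKM in CKOs (0.44, SE 0.195, adjusted P = 0.225), also with 3 CKOs above the highest control. After scaling the log2 fold change of Psmg3 was 0.65 and still passed the unadjusted threshold, whereas those of Psmf1 (0.17) and Psmd5 (0.26) did not.

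Psme2, a subunit of the interferon-inducible activator, was 0.0919, 0.232 and 0.736 FPKM in controls and 0.393, 0.601 and 0.763 FPKM in CKOs (log2 fold change 0.93, SE 0.334, limma adjusted P = 0.149). Its lowest control was control 2, its highest was control 3, and only 2 CKOs lay above the latter. Psme2b, a near-identical copy, was 1.84, 2.65 and 4.53 FPKM in controls and 3.1, 4.42 and 5.87 FPKM in CKOs (0.61, SE 0.201, adjusted P = 0.125), with 3 CKOs above the highest control. In GENCODE M21 82.5% of the Psme2 transcript and 94.9% of the Psme2b transcript were shared with 1 other gene, so the split of reads between the copies is uncertain, and the controls differed in order, with control 1 highest for Psme2b at 4.53 FPKM and next to lowest for Psme2 at 0.116 FPKM. Both still passed the unadjusted threshold after scaling, with log2 fold changes of 0.78 for Psme2 and 0.42 for Psme2b. Psme1, the partner of Psme2 in the activator ring, had a log2 fold change of 0.06 (95% interval -0.452 to 0.578).

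**Figure D4:**
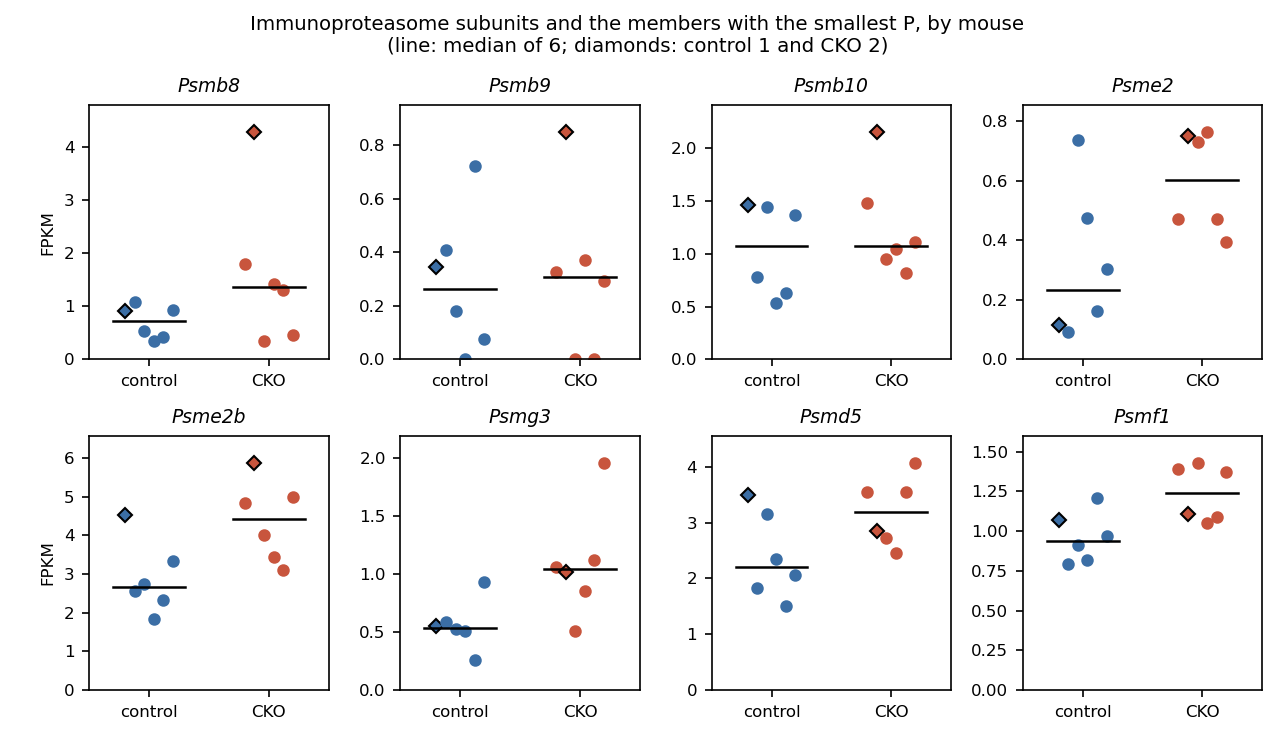
FPKM of the 3 immunoproteasome subunits and of the 5 genes with an unadjusted P below 0.05 in each of 6 controls (blue) and 6 CKOs (red), with a line at the median and a separate linear axis from 0 for each gene. Diamonds mark control 1 and CKO 2. CKO 2 is the highest mouse for Psmb8 (4.27 FPKM), Psmb10 and Psme2b, and the groups overlap for all 8 genes.

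The remaining regulators did not pass the test on the deposited scale. Psmd10, a cap chaperone also known as gankyrin, had a log2 fold change of 0.33 (95% interval -0.054 to 0.712) and Psmd9, another cap chaperone, one of 0.11 (interval -0.194 to 0.423). The core chaperones Psmg1, Psmg2 and Psmg4 had values of 0.12, -0.10 and 0.19, and the activators Psme3 and Psme4 values of 0.18 and -0.01. The interval of Psme4, the most abundant activator, was -0.262 to 0.247. Psmc3ip, whose product acts in homologous chromosome pairing and is no proteasome subunit despite its symbol, was 0.124 to 1.52 FPKM in controls and 0.193 to 0.677 FPKM in CKOs (log2 fold change -0.11, interval -0.956 to 0.729).

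Proteasome partners with other symbols were also listed. Of 15 tested 0 were called on the deposited scale, with a median log2 fold change of 0.04, and 4 were lower at an unadjusted P after scaling, where 7.41% of all genes were. Usp14, a deubiquitinase of the cap, had a log2 fold change of 0.26 (SE 0.127, limma adjusted P = 0.263), and Pomp, the maturation factor of the core, one of 0.19 (SE 0.129, adjusted P = 0.424). AI314180, an older symbol of the proteasome adaptor gene Ecpas, had one of -0.19 (SE 0.112, adjusted P = 0.35), which was -0.38 after scaling (adjusted P = 0.0818).

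At an unadjusted P on the deposited scale, 1 of 10 genes that control transcription of proteasome genes was higher, where 18.1% of all genes were. This was Nfe2l1, the transcription factor that raises proteasome gene expression when degradation is impaired, at 36.4, 39.0 and 43.0 FPKM in controls and 40.0, 43.7 and 53.1 FPKM in CKOs (log2 fold change 0.20, SE 0.089, limma adjusted P = 0.234). After scaling its log2 fold change was 0.01 (adjusted P = 0.973). On that scale 2 genes of the list, Ngly1 and Mafg, were lower at an unadjusted P, where 7.41% of all genes were. Ngly1 and Mafg were named after their values were seen. Nfyc and Nfya, subunits of the factor that binds CCAAT, had log2 fold changes of 0.24 (SE 0.142, adjusted P = 0.353) and 0.27 (SE 0.179, adjusted P = 0.398).

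Genes that supply ubiquitin included 2 of 9 that were higher in CKOs at an unadjusted P, where 18.1% of all genes were. Uba1, the main ubiquitin-activating enzyme and 1 of these, was 10.5, 11.8 and 12.6 FPKM in controls and 13.2, 13.9 and 15.8 FPKM in CKOs (log2 fold change 0.27, SE 0.089, limma adjusted P = 0.119). All 6 CKOs lay above all 6 controls for Uba1 on the deposited scale, but after scaling its log2 fold change was 0.09 (adjusted P = 0.692). After scaling 1 gene of the list was higher and 1 lower at an unadjusted P, where 6.66% and 7.41% of all genes were. Ubb, which encodes ubiquitin, was 41.2, 44.9 and 51.5 FPKM in controls and 19.2, 42.6 and 50.2 FPKM in CKOs (-0.25, SE 0.189, adjusted P = 0.47), and after scaling -0.43 (adjusted P = 0.276). Its lowest value, 19.2 FPKM, was that of CKO 4, and without CKO 4 the log2 fold change on the deposited scale was -0.05.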

How the data were processed

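Total RNA of 12 tibialis anterior muscles was depleted of ribosomal RNA and sequenced, with 1 library per mouse. The authors aligned reads to the mouse genome with at most 2 mismatches, dropped those with more than 1 mapping position and deposited 1 FPKM value per gene symbol. The submitters' processing notes name TopHat2 2.0.10, Cufflinks 2.1.1 and the build mm9, and the annotation is not given in the sources used here. The authors' own test used DESeq on counts, which are not analysed here. The files hold no counts, so depth was read only as relative steps between FPKM values below 0.15, and no counting interval was given.

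Of 23950 rows per file, 27 held a date in place of a symbol and were not used. Groups came from the genotype labels. Controls and CKOs were compared on log2(FPKM + 0.1) by limma 3.58.1 (R 4.3.3, trended prior variance), keeping genes that reached 0.1 FPKM in 6 or more samples, with Benjamini-Hochberg adjustment over the 12695 genes tested. Every P of a gene in the report is limma's, and fold changes on this scale understate the change of low genes. The study's cutoff was P below 0.05, so calls are given at unadjusted and adjusted P. Ratios were compared by exact permutation. Shared sequence was found with blastn 2.17.0 among GENCODE M21 transcripts (GRCm38), and coordinates come from GRCm38 tables by symbol, not from the files. The main limma fit was tested on simulated data with planted changes and no shift of whole samples. Within groups, samples correlated at 0.9435 to 0.972. Alternatives were a pseudocount of 1, filters at 1 FPKM and none, median-ratio scaling, quantile normalization, a length and GC correction with splines of 4 terms (98.58% of genes had both values), a replicate block, no trend, sample weights and each sample left out.

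Members and gene lists were chosen with earlier results of these data known. Values by group are given for the catalytic subunits Psmb5, Psmb6, Psmb7, Psmb8, Psmb9 and Psmb10, for genes past the adjusted threshold and for the 3 smallest P of core, cap and regulators, and 3 genes were named per other list. Some genes that meet this rule or belong to the lists are not reported here, and they stay in the fit and the counts.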

Additional observations from a re-analysis of the deposited data

Results flagged for a closer look

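In CKO 4 the alpha subunit Psma2 stood apart from the other CKOs. Its log2(FPKM + 0.1) was 4.128 there and 4.429 to 4.604 in the other 5 CKOs, a gap of 0.632 of the range of the group, above Dixon's critical value for 6 samples. It was the only one of 44 groups checked that passed this value, and chance alone passes it in about 5% of groups.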

How the results depend on the processing

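The count of proteasome genes higher in CKOs at an unadjusted P was 5 as reported and 3 with a filter at 1 FPKM, 3 with median-ratio scaling, 1 with quantile normalization, 2 with the length and GC correction, 9 with sample weights and 3 to 12 when 1 mouse was left out, 12 of them without control 1. The count lower was 0 as reported and 9 with median-ratio scaling, 2 with quantile normalization and 9 with the length and GC correction. Of all genes 18.1% were higher as reported, 6.66% with median-ratio scaling and 27.0% without control 1. The share lower was 1.76% as reported and 7.41% with median-ratio scaling. Shares for most other settings are not given here, so those counts cannot be set against all genes. For core and cap subunits alone the count higher was 3 with sample weights and 0 to 6 with 1 mouse left out, and the count lower was 8 with median-ratio scaling, 1 with quantile normalization and 8 with the length and GC correction. At an adjusted P, 1 gene was higher with sample weights and 0 to 1 with 1 mouse left out. On the scaled values, leaving out 1 mouse gave 0 to 3 genes higher, 5 to 10 lower, and 4 to 9 core and cap subunits lower, the fewest without control 4. These scaled counts without a mouse were added after the data were seen.

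The replicate numbers were not used to pair the mice in the main test, and the labels do not say whether they pair them. Deviations of mice with the same number correlated at -0.086 to 0.164, over 0.1 in 2 of 6 pairs. Of the controls, 2 of 6 correlated best with the CKO of their own number. Weak correlations of this kind cannot exclude pairing. The replicate block gave 6 genes higher and 0 lower, and with the length and GC correction 3 higher and 10 lower, of which 8 were core and cap subunits.

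The Psmb9 to Psmb6 ratio changed sign with a pseudocount of 1 (0.000) and with median-ratio scaling (0.031, added after the data were seen) and ran from -0.386 to 0.308 with 1 mouse left out, and its P stayed above 0.05 in each. Signs also turned for several named genes, among them Psmb1, Psmb4, Psma2, Psmc3, Psmd11, Pomp and Nfe2l1, which were at 0.148 to 0.198 as reported. With median-ratio scaling they were -0.155 for Psmb5, -0.175 for Psmb6, -0.005 for Psmb1, -0.008 for Psmb4, -0.016 for Psma2, -0.025 for Psmc3, -0.036 for Psmd11 and -0.000 for Pomp. With quantile normalization they were -0.162 for Psmb5, -0.085 for Psmb6 and -0.006 for Psmd11. With the length and GC correction, alone or with the replicate block, they were -0.16 for Psmb5, -0.166 for Psmb6, -0.02 for Psmc3, -0.005 for Psmd11 and -0.009 for Nfe2l1. Psmb9 was 0.011 with a pseudocount of 1 and 0.02 with sample weights, and Psmb7 was 0.01 with sample weights. With 1 mouse left out they ran from -0.381 to 0.268 for Psmb9, -0.071 to 0.165 for Psmb5, -0.054 to 0.117 for Psmb6 and -0.077 to 0.085 for Psmb7. More lower calls came from median-ratio scaling, from the length and GC correction, alone or with the replicate block, and to a smaller extent from quantile normalization. These settings all remove a shift of a whole sample, and why samples were shifted was not tested. Depth limits members near or below 1 FPKM, among them Psmb8, Psmb9, Psmb10, Psme2, Psmg3, Psma5, Psmf1 and Psmc3ip.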
